A study of Mus musculus with 36 samples.

Results

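The hypothalamus of CAST/EiJ mice was compared with that of C57BL/6J mice on the control diet by RNA sequencing. The comparison took in every library whose label gives the 10% fat diet with fiber and either strain, 6 of CAST/EiJ and 6 of C57BL/6J, with 3 females and 3 males in each, so 12 of the 36 libraries of the series. The sexes were given equal weight. All mice were untreated animals of wild-type genotype, started on their diet at 6 weeks of age and killed for tissue at 15 weeks. Another 12 libraries of these strains came from mice on a 44% fat diet with fiber (HFHS below, for the high-fat, high-sugar diet) and were used to look at the same strain difference in libraries that the main comparison did not hold. NZO/HlLtJ mice on both diets made up the remaining groups. They entered only through the expression filter, the scaling of the libraries and the shared estimate of spread. CAST/EiJ is an inbred strain derived from wild Mus musculus castaneus. C57BL/6J is the laboratory strain from which the mouse reference genome was built. The labels give each library its own identifier but do not state that each came from a separate mouse, so the p-values measure the spread between these libraries.

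The hypothalamus holds small groups of peptide neurons that set food intake, body temperature, pituitary output and arousal. Arcuate neurons that make Agrp and Npy drive feeding, and neighbouring neurons that make Pomc and Cartpt restrain it, while lateral neurons that make Hcrt or Pmch are linked to wakefulness and to feeding. Neurons of the paraventricular and supraoptic nuclei make Avp, Oxt, Crh and Trh for release into blood. Glia, ependymal cells of the third ventricle, vessels, choroid plexus and the pituitary stalk lie in or beside a dissected block, and in bulk tissue fewer cells of a type and less RNA per cell cannot be told apart.

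The libraries held totals of 23.9 to 41.0 M estimated counts, and 4.79 to 6.16% of these came from mitochondrial genes. Xist and Ddx3y matched the labelled sex in all 12 libraries. The first principal component of the 12 libraries held 53.2% of the variance and separated the strains. The second held 12.4% and set apart 1 library, CAST/EiJ female 1 (87.1, against -34.5 to 15.8 for the other 11). That library held 1331 CPM of Prl and 802 CPM of Gh, the prolactin and growth hormone genes of the anterior pituitary, where CPM, the unit of level throughout, is a gene's count scaled to a common library total with TMM factors. CAST/EiJ male 1 was next, with 28.7 CPM of Prl and 116 CPM of Gh. The slope of log2 level on transcript length, per doubling, was -0.138 in CAST/EiJ female 1, -0.0653 in CAST/EiJ female 3 and -0.0286 to 0.0439 in the other 10. Over 23 genes that were nearly silent in C57BL/6J and above 3 CPM in CAST/EiJ, C57BL/6J male 3 held 2.90% of the CAST/EiJ level and the other 5 libraries of its strain held 0.0578 to 0.291%. Over 9 genes with the opposite pattern, CAST/EiJ females 1 and 3 held 2.92% and 2.52% of the C57BL/6J level and the other 4 held 0 to 0.116%. These are summed levels, and in CAST/EiJ female 1 only 3 of the 9 genes were above 0. In CAST/EiJ female 3 it was 7 of the 9, and in C57BL/6J male 3 it was 19 of the 23. The part these 3 libraries play in each result was not tested beyond leaving them out in turn. Named genes whose calls were lost without female 1 are marked as such. Some other values in which it stands apart are given with all libraries only.

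Of 20053 genes tested, 8549 (42.6%) differed between the strains on the control diet at an adjusted p under 0.05 (edgeR quasi-likelihood F-test, Benjamini-Hochberg adjustment over all genes tested). CAST/EiJ was higher for 4278 genes (21.3%) and lower for 4271 (21.3%). A gene that passed this threshold is called below. The typical difference was small, with a median absolute log2 difference of 0.231 over all genes tested and a median of 0.00198. Calls of at least 1.5-fold numbered 3758 (18.7%), those of at least 2-fold 2476 (12.3%), with 1036 higher (5.17%) and 1440 lower (7.18%), and those of at least 4-fold 1063 (5.30%). The 6 libraries of each strain did not overlap for 3558 genes (17.7%), of which 1686 (8.41%) were higher and 1872 (9.34%) lower in CAST/EiJ. Without CAST/EiJ female 1, 8429 genes were called (42.0%), 4148 higher (20.7%) and 4281 lower (21.3%). With only the 12 control libraries in the fit, 6228 were called, 14.8% higher and 16.2% lower, and list counts under that fit (the 12-library fit) are given below where a count above 2 differs by more than 1.5 times. Of the 8549 calls, 7528 (88.1%) were called without that library in the same direction and 0 in the opposite one. The share of genes differing by at least 2-fold was 8.33% of 16023 protein-coding genes, 26.3% of 3262 long noncoding genes and 40.8% of 650 pseudogenes. The plot of strain difference against level shows these calls.

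**Figure D1:**
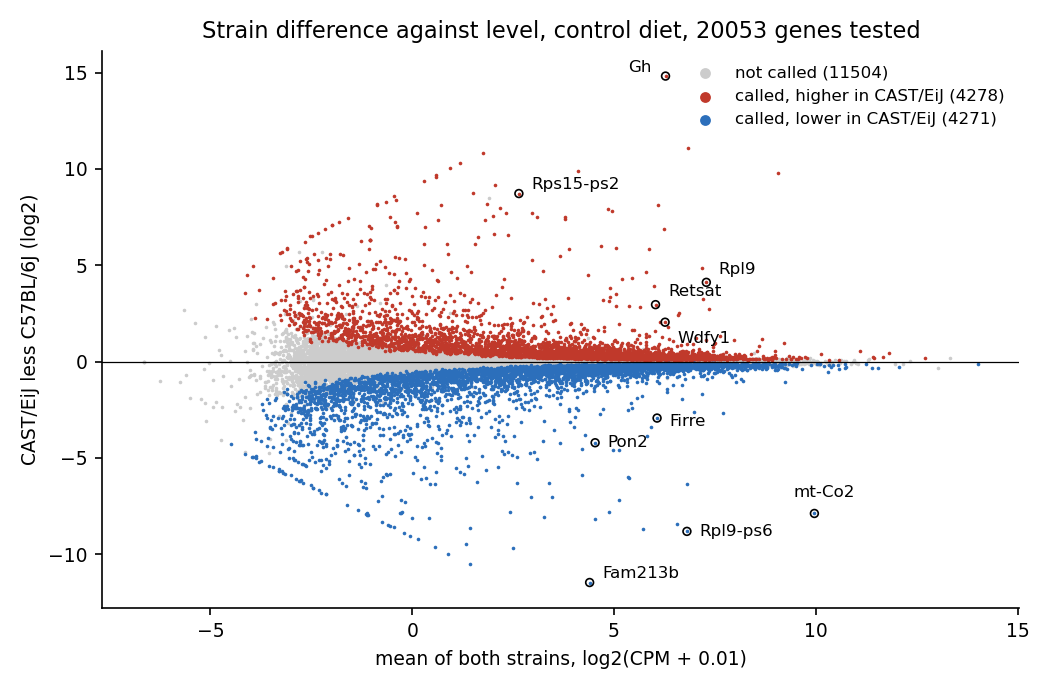
Difference between CAST/EiJ and C57BL/6J on the control diet (vertical axis, log2) against the mean level of both strains (horizontal axis, log2 of CPM + 0.01), 1 point per gene tested. Called genes, 4278 higher in red and 4271 lower in blue, spread over the whole range of levels, and 10 genes named in the text are circled.

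Among genes with the smallest p-values, Retsat (retinol saturase, chr6:72598475-72608425, build GRCm38) lay from 13.3 to 15.7 CPM in C57BL/6J (median 14.96) and from 100.5 to 162 CPM in CAST/EiJ (median 106). The libraries of the strains were far apart, and the log2 difference, given throughout as CAST/EiJ less C57BL/6J with its standard error, was 2.95 ± 0.08, adjusted p = 1.03e-23. Wdfy1, which encodes an endosomal adaptor protein (chr1:79702262-79776143), ran from 26.7 to 37.1 CPM in C57BL/6J (median 29.3) and from 118 to 130.1 CPM in CAST/EiJ (median 124), a log2 difference of 2.04 ± 0.06, adjusted p = 1.29e-22. Gstm7, a glutathione S-transferase of the mu class (chr3:107926334-107931817), ran from 24.3 to 30.1 CPM in C57BL/6J (median 27.2) and from 103 to 128 CPM in CAST/EiJ (median 113) (2.07 ± 0.06, adjusted p = 1.72e-22). None of these 3 genes overlapped between strains, and each was as different in the HFHS libraries (log2 2.71, 2.01 and 2.03). Sfi1, a centrosome protein gene, differed by 2.75 ± 0.09 and Cyp2d22, a cytochrome P450, by 1.42 ± 0.05 in the same direction. Tspan10, a tetraspanin, was listed at 0 in most C57BL/6J libraries and reached at most 0.125 CPM there, in male 3, against 7.34 to 9.21 CPM in CAST/EiJ.

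In the other direction, Fam213b, which encodes a prostamide and prostaglandin F synthase (chr4:154895504-154899135), ran from 39.8 to 44.5 CPM in C57BL/6J (median 41.7) and from 0 to 0.0924 CPM in CAST/EiJ (median 0.0134). CAST/EiJ was close to 0 in every library (log2 -11.47 ± 0.17, adjusted p = 3.77e-25). Pon2, a paraoxonase gene (chr6:5264147-5298455), ran from 41.99 to 46.8 CPM in C57BL/6J (median 43.7) and from 1.77 to 3.42 CPM in CAST/EiJ (median 2.24) (-4.21 ± 0.11, adjusted p = 9.25e-24). Firre, an X-linked long noncoding RNA (chrX:50555744-50635321), ran from 113 to 129 CPM in C57BL/6J (median 118) and from 9.15 to 19.8 CPM in CAST/EiJ (median 17.03) (-2.93 ± 0.09, adjusted p = 8.32e-22). The groups did not overlap for any of the 3, and the HFHS differences were -13.49, -4.36 and -2.81. Zfp783, of the zinc finger family, (-3.83 ± 0.12) and Pdxdc1, a decarboxylase-domain gene (-1.195 ± 0.04), were also lower without overlap. Vmn2r87, a vomeronasal receptor gene, had 1.28 to 2.29 CPM in C57BL/6J and no count in any CAST/EiJ library. Set against a floor of 3 counts over the group, it was at least 117-fold lower. It ended a stretch on chromosome 10 (130385316 to 130497379) of 4 neighbouring vomeronasal genes, Vmn2r84 to Vmn2r87, all lower by at least 2-fold. There were 253 such stretches of 2 or more neighbouring genes called in 1 direction at 2-fold or more, and the longest, on chromosome 14 from 41049209 to 43347811, held 9 genes that were higher, Dydc2 among them.

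Many of the largest differences sat in families with near-identical members, where a read can be counted to either copy. Of 1545 tested genes with a copy of at least 95% identity over at least 50% of the transcript, 27.7% were called at 2-fold or more, against 11.0% of 18417 genes without one. In protein-coding genes alone the shares were 20.9% and 7.43%. Rpl9, a protein of the large ribosomal subunit, ran from 13.6 to 21.6 CPM in C57BL/6J (median 16.4) and from 246 to 415 CPM in CAST/EiJ (median 274), and its processed pseudogene Rpl9-ps6 on chromosome 19 ran from 210.3 to 238 CPM in C57BL/6J (median 222) and from 0.0493 to 2.16 CPM in CAST/EiJ (median 0.379). The gene was 4.11 higher and the pseudogene -8.81 on the log2 scale, yet the sum of both averaged 240.2 CPM in C57BL/6J and 296 CPM in CAST/EiJ. Exact permutation tests of such sums over the 12 libraries have a smallest possible p of 0.002165, and the sum of Rpl9 and its copy had an exact p of 0.00866 (0.0251 adjusted over 29 groups). The log2 difference of that sum was 0.28, or 0.18 without CAST/EiJ female 1. In 25 of 29 groups examined the named gene differed by at least 2-fold, and in 18 of these the sum over its copies differed by less than 1.5-fold. The groups were built around genes named for their values in this same comparison, so the count of 25 largely follows from that choice. For the same reason the exact p-values of the sums are descriptive.

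The mitochondrial gene mt-Co2, which encodes a subunit of cytochrome c oxidase, shows a related split between a gene and its nuclear copies. It ran from 1599 to 2333 CPM in C57BL/6J (median 2014) and from 4.41 to 27.5 CPM in CAST/EiJ (median 5.22) (log2 -7.88 ± 0.26, adjusted p = 4.40e-21). Gm13341, a copy of mitochondrial sequence on chromosome 2, ran from 0.0342 to 50.7 CPM in C57BL/6J (median 0.113) and from 389.7 to 1584 CPM in CAST/EiJ (median 1130.3), and the highest C57BL/6J value, 50.7 CPM, was in male 3. Gm28661, on chromosome 1, ran from 2149 to 3666 CPM in C57BL/6J (median 3069.7) and from 2901 to 4377 CPM in CAST/EiJ (median 3289), with groups that overlapped (0.25 ± 0.08, adjusted p = 0.0139, a call lost without C57BL/6J female 1). The 3 summed to 5000 CPM in C57BL/6J and 4611 CPM in CAST/EiJ on average (exact p = 0.411). Matching stretches of the reference (GENCODE M21 transcripts, build GRCm38, which carries the C57BL/6J sequence) are shown because so few letters tell the 3 genes apart. The 3 lines give mt-Co2 at chrM:7214-7303 on the plus strand, Gm28661 at chr1:24615275-24615364 on the minus strand and Gm13341 at chr2:22587672-22587761 on the minus strand, with capitals at the 3 positions where Gm13341 differs. CAST/EiJ alleles were not read.
mt-Co2: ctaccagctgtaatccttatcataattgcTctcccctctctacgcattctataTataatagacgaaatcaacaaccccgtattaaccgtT
Gm28661: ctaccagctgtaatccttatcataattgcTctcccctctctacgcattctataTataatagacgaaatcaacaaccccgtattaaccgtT
Gm13341: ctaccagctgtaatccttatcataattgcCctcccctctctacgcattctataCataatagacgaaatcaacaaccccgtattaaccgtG
Over 681 aligned bases mt-Co2 and Gm28661 were identical.

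Other groups behaved likewise when summed. Rpl19 (3.23) and its pseudogene Rpl19-ps11 (-8.41) moved apart while the sum with a second pseudogene was 215 CPM in C57BL/6J and 266 in CAST/EiJ. Rpl27 (2.82) and Rpl27-ps3 (-7.17) summed to 81.3 and 88.2 CPM. The tubulin gene Tuba1c differed by 5.87, and with 6 copies that include the abundant brain tubulins it summed to 1823 and 1747 CPM. For Tpm3-rs7 (7.39, a copy of a tropomyosin gene) and Tagap (3.28, a GTPase-activating protein gene) the sums were likewise close, at 118 and 125, and at 42.2 and 42.0 CPM. Rpl29 alone differed by -2.13 and its group of 4 summed to 69.7 and 79.2 CPM. The sum still differed without overlap for Srp54b with its copy (249.9 against 93.7 CPM, signal recognition particle genes) and for Tmem254b with its copies (43.7 against 13.1 CPM), each at the smallest exact p, 0.00697 after adjustment. The groups of Rps12 (72.3 against 109 CPM) and Rps13-ps1 (74.1 against 101 CPM) also did not overlap. Their log2 differences were 0.55 and 0.41, or 0.40 and 0.28 without CAST/EiJ female 1. The 2 genes summed under Rps15-ps2 were at 218.6 and 138.9 CPM with overlap (exact p = 0.0130, 0.0314 adjusted). Single-gene values of these families are therefore given as uncertain.

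**Figure D2:**
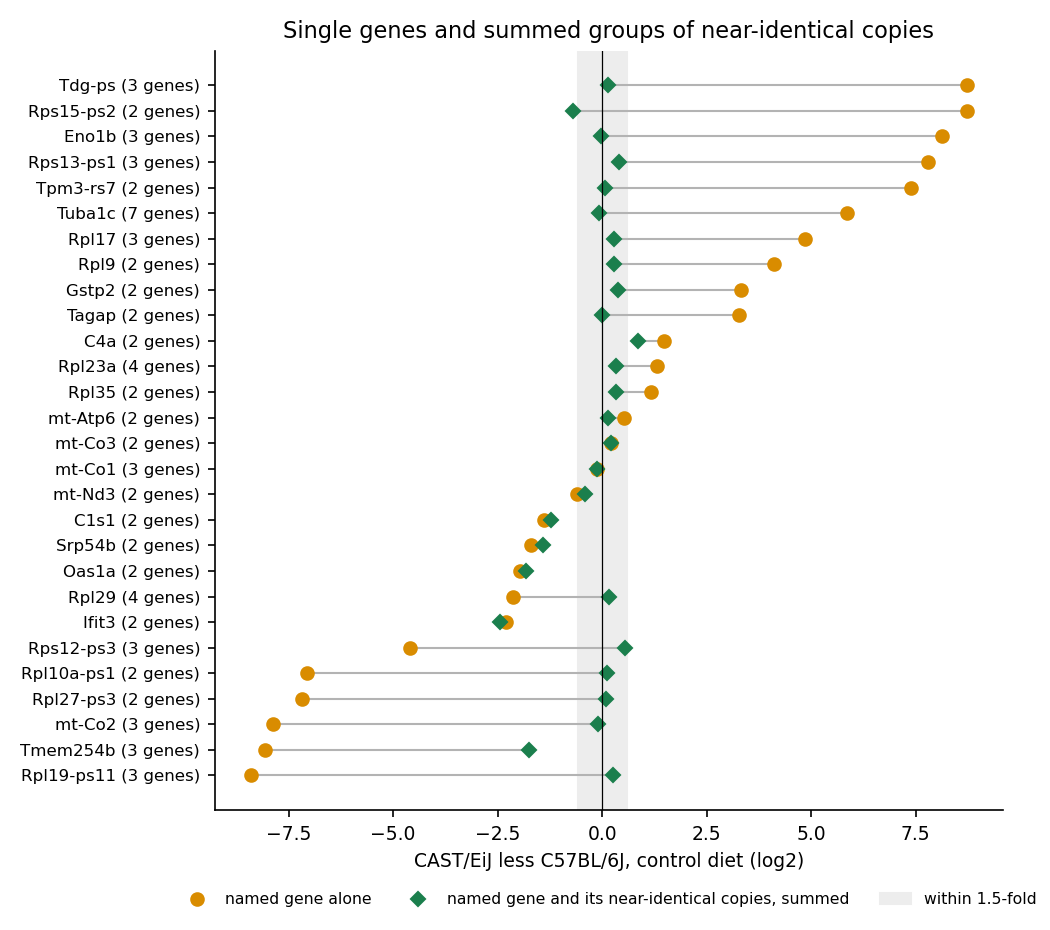
Strain difference (log2, horizontal axis) of 28 of the 29 named genes alone (orange circles) and of the same genes summed with their near-identical copies (green diamonds), with the range under 1.5-fold shaded. In 17 groups drawn the single gene lies beyond 2-fold and the sum inside the shaded range, whereas the sums of the Srp54b, Tmem254b, Rps15-ps2, Ifit3, Oas1a, C1s1 and C4a groups lie outside it.

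Several peptides that promote feeding were higher in CAST/EiJ. Of 20 tested orexigenic peptides and receptors, 8 were higher and 2 lower, beside 21.3% of all genes in each direction, with a median log2 difference of 0.03 (4 lower without CAST/EiJ female 2, 1 lower in the 12-library fit). Agrp, the melanocortin receptor antagonist of arcuate hunger neurons, ran from 2.46 to 4.72 CPM in C57BL/6J (median 3.303) and from 4.34 to 16.8 CPM in CAST/EiJ (median 8.05). The groups overlapped only slightly, and the highest value was that of CAST/EiJ female 1 (log2 1.395 ± 0.28, adjusted p = 1.26e-04, 1.13 without that library). The deposited Agrp model, chr8:105566698-105637393, overlaps Fam65a and Ctcf, whose own log2 differences were -0.01 and -0.01. Hcrt, the orexin precursor, ran from 20.8 to 85.2 CPM in C57BL/6J (median 47.7) and from 62.1 to 235 CPM in CAST/EiJ (median 99.9), with overlapping groups (1.18 ± 0.27, adjusted p = 8.41e-04, 0.98 without female 1). Pmch, which encodes melanin-concentrating hormone, ran from 213 to 343 CPM in C57BL/6J (median 269) and from 315 to 905 CPM in CAST/EiJ (median 407) (0.81 ± 0.15, adjusted p = 7.15e-05, 0.62 without female 1). Npy, co-released with Agrp, ran from 15.9 to 24.6 CPM in C57BL/6J (median 19.4) and from 20.9 to 80.1 CPM in CAST/EiJ (median 28.5). Here 1 library set much of the size, since the log2 difference was 0.80 ± 0.22 with all libraries and 0.47 (adjusted p = 0.0391) without female 1. The ghrelin receptor gene Ghsr (0.63 ± 0.16), the galanin gene Gal (0.57 ± 0.13), the Npy receptor gene Npy5r (0.54 ± 0.11) and the dynorphin precursor Pdyn (0.29 ± 0.08) completed the 8. Npy2r, an inhibitory autoreceptor of Npy neurons, was the exception with no overlap, and ran from 25.7 to 35.2 CPM in C57BL/6J (median 30.6) and from 19.4 to 22.1 CPM in CAST/EiJ (median 20.5) (-0.56 ± 0.08, adjusted p = 5.44e-07). The galanin receptor gene Galr1 was also lower (-0.41 ± 0.13), and its call was lost without CAST/EiJ male 1.

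**Figure D3:**
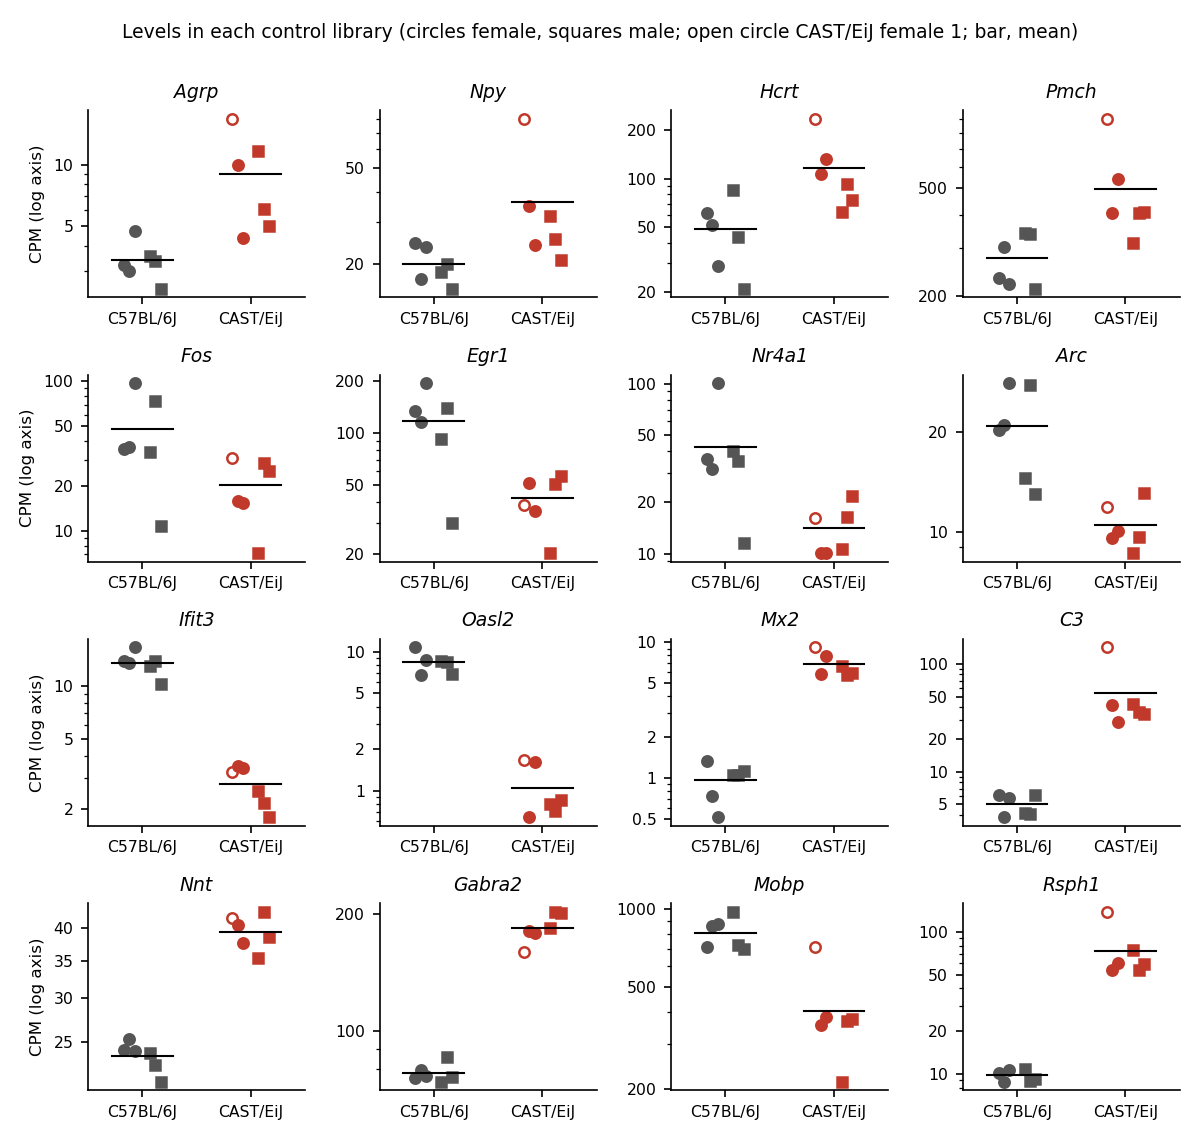
CPM on log axes for 16 genes in each of the 12 control libraries (circles female, squares male, open circle CAST/EiJ female 1, bar the mean of 6). Ifit3, Oasl2, Mx2, C3, Nnt, Gabra2 and Rsph1 show no overlap between strains, whereas Agrp, Npy, Hcrt, Pmch, Fos, Egr1, Nr4a1, Arc and Mobp overlap.

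Genes of satiety signalling went both ways. Of 23 tested, 7 were higher and 3 lower (6 and 3 without female 1), beside 21.3% of all genes each way. The median of 0.13 was -0.0068 without female 1, 0.03 without CAST/EiJ male 3, 0.07 and 0.08 without C57BL/6J male 3 and female 3, and 0.20 to 0.29 without any one of C57BL/6J females 1 and 2 and males 1 and 2 and CAST/EiJ male 1. Crh, the corticotropin-releasing hormone of the paraventricular nucleus, ran from 2.18 to 3.89 CPM in C57BL/6J (median 2.88) and from 1.07 to 1.91 CPM in CAST/EiJ (median 1.304). All CAST/EiJ values lay below all C57BL/6J values (log2 -1.04 ± 0.26, adjusted p = 0.00150), whereas in the HFHS libraries the difference was 0.22 and not called (adjusted p = 0.524). The cholecystokinin receptors split, with Cckbr lower (-0.51 ± 0.10, adjusted p = 1.78e-04) and Cckar higher (0.48 ± 0.10, adjusted p = 3.94e-04), both without overlap. Insr, the insulin receptor gene, was lower (-0.30 ± 0.06). Crhr2, a receptor for urocortins, was higher (0.52 ± 0.11), as were Nucb2, the nesfatin precursor (0.37 ± 0.06), Bdnf (0.36 ± 0.10) and the melanocortin receptor gene Mc3r (0.32 ± 0.11). Cartpt (0.36 ± 0.12) and Nms (0.98 ± 0.35) were called with all libraries and not without female 1 (0.19 and 0.49, adjusted p = 0.107 and 0.218). Their calls were also lost without C57BL/6J male 3 (Cartpt) and C57BL/6J female 2 or male 2 (Nms), and that of Mc3r without CAST/EiJ female 2. Pomc, the source of melanocyte-stimulating hormone, ran from 32.1 to 55.8 CPM in C57BL/6J (median 40.8) and from 35.2 to 91.6 CPM in CAST/EiJ (median 40.6). Its difference was not called (0.28 ± 0.18, adjusted p = 0.207), and it was -0.02 without female 1. The leptin receptor gene Lepr (0.35 ± 0.17) and Mc4r (0.27 ± 0.14) were not called either, although Lepr was called without female 1 (0.45) and without CAST/EiJ male 1 (0.48).

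Few neuroendocrine peptides differed, with 3 of 21 higher (2 without female 1) against 21.3% of all genes, and up to 2 lower when C57BL/6J female 2 or male 3 or CAST/EiJ female 3 was left out. Avp, the vasopressin precursor, ran from 54.7 to 124 CPM in C57BL/6J (median 83.3) and from 89.9 to 292 CPM in CAST/EiJ (median 150.3). CAST/EiJ was higher with some overlap (0.93 ± 0.21, adjusted p = 4.88e-04, 0.70 without female 1), and the difference on HFHS was 0.23 (adjusted p = 0.393). The granin gene Scg2 (0.37 ± 0.09) and Prok2, an output peptide of the circadian pacemaker (1.15 ± 0.36), were the others, and Prok2 was not called without female 1 (0.65, adjusted p = 0.102). Oxt (0.18 ± 0.29, -0.31 without female 1) and Sst (-0.11 ± 0.10) were not called.

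Enzymes and chaperones that cut or finish peptides went both ways, with 6 of 17 higher and 5 lower against 21.3% of all genes each way (3 higher in the 12-library fit). Scg5, the chaperone of the prohormone convertase PC2, ran from 147 to 174 CPM in C57BL/6J (median 154) and from 289 to 431 CPM in CAST/EiJ (median 329). The groups stood far apart (1.13 ± 0.05, adjusted p = 2.42e-17), and the HFHS difference was 1.00. Qpct, which forms the N-terminal pyroglutamate of peptides such as Trh, was higher (0.61 ± 0.05, adjusted p = 4.11e-12). Of the peptide-degrading enzymes, Dpp4 (-0.93 ± 0.25) and Mme, neprilysin (-0.51 ± 0.11), were lower. Ide, the insulin-degrading enzyme gene (chr19:37268743-37337852), held 108, 108.2, 110.0, 113 and 117 CPM in 5 C57BL/6J libraries and 54.9 CPM in the other, male 2, against 48.7 to 65.9 CPM in CAST/EiJ. Male 2 therefore lay inside the CAST/EiJ range, and the difference over all 12 libraries was -0.82 ± 0.12, adjusted p = 2.73e-06. A duplicated segment that holds Ide is known to segregate in C57BL/6J stocks. Whether it is present in these mice was not tested.

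Among genes of steroid and thyroid hormone signalling, 6 of 20 were higher and 1 lower, beside 21.3% of all genes each way (4 lower without CAST/EiJ female 2, 2 without C57BL/6J female 2). Hsd11b1, which regenerates active glucocorticoid, ran from 7.41 to 10.7 CPM in C57BL/6J (median 8.94) and from 15.97 to 30.7 CPM in CAST/EiJ (median 19.4) and did not overlap (1.24 ± 0.10, adjusted p = 2.30e-11). Dio3, the deiodinase that inactivates thyroid hormone, was low throughout and ran from 0.0845 to 0.287 CPM in C57BL/6J (median 0.186) and from 0.178 to 0.883 CPM in CAST/EiJ (median 0.509) (1.31 ± 0.35, adjusted p = 0.00318). The neurokinin B receptor gene Tacr3 was higher without overlap (0.48 ± 0.09, adjusted p = 3.19e-05). The gonadotropin-releasing hormone receptor gene Gnrhr is a pituitary gene, and its 10.5 CPM in female 1 was the top of a range that reached down to 0.364 CPM in CAST/EiJ.

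Receptors for fast transmitters differed little as families, with single exceptions, beside 21.3% of all genes called each way. Of 16 GABA-A receptor subunits 1 was higher and 3 lower (2 higher without female 1, 5 lower without CAST/EiJ female 2). The exception was Gabra2, the alpha-2 subunit (chr5:70957597-71095849), which ran from 74.4 to 86.1 CPM in C57BL/6J (median 76.7) and from 159.6 to 202 CPM in CAST/EiJ (median 182). Every CAST/EiJ library lay above every C57BL/6J library (1.23 ± 0.06, adjusted p = 1.17e-16, 1.1999 on HFHS). An intronic deletion in Gabra2 that lowers its expression is known in C57BL/6J. The rho subunit gene Gabrr2 was lower at a low level (0.938 to 0.231 CPM at the median, -1.87 ± 0.29, adjusted p = 4.56e-06). Of 25 glutamate receptor subunits, 1 was higher, the NMDA receptor gene Grin2c (0.41 ± 0.05), and 4 were lower (3 and 3 without female 1, 2 higher without CAST/EiJ male 2, and 11 lower without CAST/EiJ female 2). Gria1, an AMPA receptor subunit, ran from 588 to 643 CPM in C57BL/6J (median 596) and from 409.5 to 479.9 CPM in CAST/EiJ (median 467) with no overlap (-0.42 ± 0.04, adjusted p = 5.49e-11), and the metabotropic receptor gene Grm3 was lower (-0.57 ± 0.11). Grin2b (-0.42 ± 0.15) was not called without female 1 (-0.25, adjusted p = 0.0837) or without any one of 4 others (C57BL/6J female 2, males 1 and 3, CAST/EiJ male 3).

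Of 28 monoamine genes 9 were lower and 3 higher, beside 21.3% of all genes each way, and 5 were lower in the 12-library fit. Maob, which breaks down monoamines, ran from 47.1 to 59.01 CPM in C57BL/6J (median 53.2) and from 30.02 to 40.5 CPM in CAST/EiJ (median 32.9) (-0.68 ± 0.07, adjusted p = 1.16e-09) with no overlap. Hdc, the histamine-forming enzyme of tuberomammillary neurons, ran from 47.9 to 74.1 CPM in C57BL/6J (median 59.9) and from 28.3 to 49.1 CPM in CAST/EiJ (median 43.5), with slight overlap (-0.57 ± 0.11, adjusted p = 1.67e-04). The vesicular monoamine transporter gene Slc18a2 (-0.37 ± 0.12), the decarboxylase gene Ddc (-0.23 ± 0.05) and the serotonin receptor gene Htr4 (-0.72 ± 0.15) were also lower. Th, the first enzyme of dopamine synthesis, was -0.10 ± 0.09 and not called. The dopamine receptor genes Drd5 and Drd3 were higher. Drd5 ran from 2.11 to 3.44 CPM in C57BL/6J (median 2.798) and from 4.21 to 6.86 CPM in CAST/EiJ (median 5.15) without overlap (0.95 ± 0.14, adjusted p = 1.82e-06), and Drd3 differed by 1.48 ± 0.37 at medians of 0.699 to 2.34 CPM.

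Immediate early genes, which neurons switch on within minutes of activity or stress, were lower in CAST/EiJ. Of 20 tested, 14 were lower and 1 higher, with a median log2 difference of -0.996 (-1.08 without female 1), beside 21.3% of all genes in each direction. In the HFHS libraries the median over the same genes was -0.48. Nr4a1, an orphan nuclear receptor gene, ran from 11.6 to 101 CPM in C57BL/6J (median 35.6) and from 10.1 to 21.8 CPM in CAST/EiJ (median 13.4). C57BL/6J spanned a wide range, from male 3 inside the CAST/EiJ range to female 3 far above it (-1.51 ± 0.28, adjusted p = 5.66e-05). Egr1, an activity-induced zinc finger factor, ran from 30.3 to 194 CPM in C57BL/6J (median 124) and from 20.2 to 56.3 CPM in CAST/EiJ (median 44.5), and again C57BL/6J male 3 alone lay within the CAST/EiJ range (-1.43 ± 0.31, adjusted p = 3.80e-04). Fos ran from 10.7 to 97.4 CPM in C57BL/6J (median 35.9) and from 7.12 to 30.95 CPM in CAST/EiJ (median 20.5) (-1.19 ± 0.38, adjusted p = 0.0123). C57BL/6J female 3 was the highest of all, and the call of Fos was lost without it (-0.87, adjusted p = 0.0708), without C57BL/6J male 2 (-0.78, adjusted p = 0.0972) and with only the 12 control libraries in the fit (adjusted p = 0.0560). Arc, a synaptic capsid-like protein gene, ran from 13.04 to 28.2 CPM in C57BL/6J (median 20.7) and from 8.61 to 13.1 CPM in CAST/EiJ (median 9.85) (-0.97 ± 0.18, adjusted p = 4.41e-05), and only C57BL/6J male 3 lay within the CAST/EiJ range. Fosb (-1.42 ± 0.40), Egr2 (-1.4004 ± 0.44), Egr3 (-1.38 ± 0.31), Egr4 (-1.43 ± 0.30), Junb (-1.23 ± 0.25), Btg2 (-1.18 ± 0.27), Nr4a3 (-1.02 ± 0.28), Dusp1 (-0.78 ± 0.24), Npas4 (-0.76 ± 0.21) and Klf4 (-0.62 ± 0.22) were lower as well. Jun (0.07 ± 0.09) and Ier2 (-0.42 ± 0.22) were not called (Ier2 was without C57BL/6J female 1 or male 3), and Ppp1r15a, a translation-recovery phosphatase subunit of the stress response, was higher (0.54 ± 0.11). The count of lower genes was 10 in the 12-library fit, and 11 without C57BL/6J female 3 or without male 2. Those libraries also decided the calls of Dusp1 and Klf4, and that of Klf4 was lost without C57BL/6J male 1 too. Times of killing and handling are unknown here.

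Promoters of this family are known for binding sites of CREB, a factor driven by cyclic AMP and calcium. The full site, TGACGTCA on either strand, lay within 250 bases before the start of 3 of 16 immediate early genes with a promoter in the RefSeq table (18.8%), against 2.77% of 13010 tested genes. The carriers were Btg2, Dusp1 and Ppp1r15a, so 2 genes that were lower and the 1 that was higher. The interferon-stimulated response element, described below, lay before equally many, 3 of 16 (18.8%), against 3.15% of tested genes. The lines show the site in capitals with flanking bases on the strand of each gene, at chr1:134079289-134079346 (minus strand) for Btg2 and chr17:26508583-26508640 (minus strand) for Dusp1, in the C57BL/6J reference (RefSeq, GRCm38.p6). A match describes these letters and is not evidence of binding.
Btg2: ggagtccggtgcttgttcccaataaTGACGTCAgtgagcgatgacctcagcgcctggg
Dusp1: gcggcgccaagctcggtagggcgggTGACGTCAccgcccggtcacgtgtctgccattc

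Other programmes that follow the state of the animal at death moved less uniformly, beside 21.3% of all genes called each way. Of 15 heat shock genes 1 was higher (4 without C57BL/6J male 2, 3 without CAST/EiJ male 1, 2 without C57BL/6J female 2 or CAST/EiJ female 2 or 3). Of 20 clock genes 4 were higher and 3 lower, among them Rorb, an orphan nuclear receptor gene (0.67 ± 0.08, adjusted p = 6.14e-08, no overlap), and Nr1d1, the clock repressor REV-ERB alpha (0.38 ± 0.10, -0.01 on HFHS). The clock counts were 2 higher and 1 lower without C57BL/6J male 1, 2 higher without CAST/EiJ female 2, 1 lower without C57BL/6J female 3 or CAST/EiJ female 3, and 2 higher in the 12-library fit. Of 18 glucocorticoid-induced genes 4 were higher and 5 lower, with 3 lower in the 12-library fit and without any one of 4 libraries (C57BL/6J males 1 and 2, CAST/EiJ female 3 and male 1). Fkbp5, a co-chaperone of the glucocorticoid receptor, ran from 26.8 to 45.7 CPM in C57BL/6J (median 37.3) and from 45.7 to 103 CPM in CAST/EiJ (median 75.8) and barely overlapped (1.03 ± 0.15, adjusted p = 1.90e-06). Zbtb16 (1.26 ± 0.35) and the pyruvate dehydrogenase kinase gene Pdk4 (0.79 ± 0.18) were higher too. Ddit4, an inhibitor of mTOR, ran from 17.3 to 49.9 CPM in C57BL/6J (median 43.1) and from 14.1 to 25.2 CPM in CAST/EiJ (median 15.9) (-1.04 ± 0.18, adjusted p = 2.81e-05), and Sult1a1 was lower (-0.86 ± 0.26). Sgk1 (-0.87 ± 0.36) lay just outside the threshold of 0.05 and was called under 8 alternatives, among them without C57BL/6J female 3 or male 3 or CAST/EiJ female 1 or male 3. The family thus did not move in 1 direction.

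Interferon-stimulated genes were lower in CAST/EiJ with marked exceptions. Of 31 tested, 18 were lower and 5 higher (20 and 4 without female 1) against 21.3% of all genes each way, with a median of -0.45 (-1.04 in the HFHS libraries). Ifit3, an antiviral RNA-binding protein gene (chr19:34583531-34588731), ran from 10.3 to 16.5 CPM in C57BL/6J (median 13.6) and from 1.80 to 3.53 CPM in CAST/EiJ (median 2.91). The groups stood apart (-2.302 ± 0.18, adjusted p = 9.08e-12), and Ifit3 with its near-identical copy Ifit3b summed to 21.2 CPM in C57BL/6J and 3.90 CPM in CAST/EiJ. It opened a stretch of 5 neighbouring genes on chromosome 19, from 34583531 to 34650009, that were all lower. Oasl2, an oligoadenylate synthetase-like gene, ran from 6.82 to 10.7 CPM in C57BL/6J (median 8.46) and from 0.642 to 1.66 CPM in CAST/EiJ (median 0.829) (-3.04 ± 0.17, adjusted p = 3.30e-15), and Irf7, the factor that amplifies interferon responses, ran from 2.26 to 3.02 CPM in C57BL/6J (median 2.501) and from 0.214 to 0.795 CPM in CAST/EiJ (median 0.558) (-2.17 ± 0.21, adjusted p = 8.65e-10). Neither overlapped. Ifi44 (-5.48 ± 0.57), Ifit1 (-2.09 ± 0.22), Oas1a (-1.96 ± 0.35), Isg15, a ubiquitin-like modifier (-1.89 ± 0.33), Usp18, which removes that modifier (-1.796 ± 0.30), and Trim30a (-1.35 ± 0.17) were lower without overlap. The dynamin-like antiviral genes went the other way. Mx2 ran from 0.513 to 1.34 CPM in C57BL/6J (median 1.06) and from 5.77 to 9.18 CPM in CAST/EiJ (median 6.35) (2.81 ± 0.26, adjusted p = 3.54e-10), and Mx1 ran from 0.0423 to 0.513 CPM in C57BL/6J (median 0.215) and from 0.855 to 1.36 CPM in CAST/EiJ (median 1.03) (2.04 ± 0.34, adjusted p = 1.51e-05). C57BL/6J, like many laboratory strains, is known to carry a defective Mx1 gene.

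The interferon-stimulated response element is the site through which Irf factors act on these genes. Its core, GAAANNGAAA on either strand, lay within 250 bases before the start of 11 of 22 listed interferon genes with a promoter in the RefSeq table, against 3.15% of 13010 tested genes. Of these 11, 8 were called lower, beside 18 of all 31 listed genes, and 3, Bst2, Gbp3 and Ifitm2, were not called. Mx1 and Mx2 were not among the 11. Genes without a promoter in that table could not be searched, so absence from the 11 does not show that the site is missing. The sites were found by a search for these letters, so their cores match by construction. The 3 carriers that were not called are not shown. Reference sequences of 5 carriers, all called lower, are given with the core in capitals on the strand of each gene (C57BL/6J reference, RefSeq, GRCm38.p6). They lie at chr19:34640779-34640838 (plus) for Ifit1, chr19:34583382-34583441 (plus) for Ifit3, chr4:156200850-156200909 (minus) for Isg15, chr5:120907526-120907564 (minus) for Oas1a and chr7:104465195-104465254 (minus) for Trim30a. Between the core and the start lie 4 bases in Oas1a and 26 to 112 bases in the other 4. CAST/EiJ alleles at these sites were not read.
Ifit1: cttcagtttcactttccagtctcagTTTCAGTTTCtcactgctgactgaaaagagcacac
Ifit3: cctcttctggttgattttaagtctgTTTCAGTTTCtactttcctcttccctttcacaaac
Isg15: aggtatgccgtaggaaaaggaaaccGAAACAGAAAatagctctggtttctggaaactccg
Oas1a: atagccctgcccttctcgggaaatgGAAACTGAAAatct
Trim30a: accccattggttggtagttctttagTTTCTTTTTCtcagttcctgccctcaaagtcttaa

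Antigen presentation genes were also more often lower, with 10 of 20 genes lower and 3 higher, beside 21.3% of all genes each way, and a median of -0.66. H2-D1, a classical class I histocompatibility gene, ran from 37.3 to 46.97 CPM in C57BL/6J (median 45.5) and from 4.705 to 9.603 CPM in CAST/EiJ (median 6.22) (-2.7002 ± 0.10, adjusted p = 1.98e-19), and H2-K1 ran from 20.7 to 30.8 CPM in C57BL/6J (median 26.8) and from 5.27 to 12.8 CPM in CAST/EiJ (median 6.34) (-1.85 ± 0.14, adjusted p = 1.89e-12). Neither overlapped. The H2 region is highly polymorphic between mouse strains, and how CAST/EiJ reads of it were assigned was not tested. H2-T23 (-0.90 ± 0.12), the class I activator Nlrc5 (-0.84 ± 0.18) and the class II activator Ciita (-1.21 ± 0.23) were lower, while the peptide-loading gene Tapbp (0.47 ± 0.06) and the immunoproteasome gene Psmb10 (0.41 ± 0.07) were higher. B2m, the invariant chain partner of class I molecules, was 0.13 ± 0.09 and not called (0.23, adjusted p = 0.00905, without CAST/EiJ female 2).

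Of 18 complement genes 4 were higher, near the 21.3% of all genes, and 7 lower. C3, the central component, ran from 3.79 to 6.17 CPM in C57BL/6J (median 4.96) and from 28.7 to 143 CPM in CAST/EiJ (median 38.9), with female 1 the highest and every CAST/EiJ library above every C57BL/6J library (3.35 ± 0.25, adjusted p = 2.50e-12, 2.85 without female 1). C4b (0.81 ± 0.09) and its near-identical neighbour C4a (1.49 ± 0.16) were higher and summed to 72.0 CPM in C57BL/6J and 132 CPM in CAST/EiJ. The protease gene C1s1 (-1.396 ± 0.24), the receptor gene C3ar1 (-1.19 ± 0.20) and the microglial recognition gene C1qa (-0.39 ± 0.10) were lower.

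Detoxifying enzymes were more often higher, at 14 of 28 against 4 lower (13 and 4 without female 1), beside 21.3% of all genes each way, with a median of 0.24 on control diet and 0.02 on HFHS. Gstp2 ran from 0.584 to 1.35 CPM in C57BL/6J (median 0.937) and from 6.95 to 16.2 CPM in CAST/EiJ (median 8.497) (3.32 ± 0.17, adjusted p = 3.03e-16). It has a near-identical partner, Gstp1, and the pair together differed by 0.39. Glo1, which clears methylglyoxal, ran from 93.97 to 108 CPM in C57BL/6J (median 97.4) and from 196 to 271 CPM in CAST/EiJ (median 204) with no overlap (1.12 ± 0.05, adjusted p = 3.84e-18). Glutathione reductase, Gsr (0.58 ± 0.07), and the limiting enzyme of glutathione synthesis, Gclc (0.24 ± 0.04), were higher. Gsta4, which acts on lipid aldehydes, ran from 31.7 to 34.2 CPM in C57BL/6J (median 33.8) and from 11.9 to 22.3 CPM in CAST/EiJ (median 12.4) (-1.23 ± 0.09, adjusted p = 8.73e-13), and Gstt1 was lower (-1.09 ± 0.08).

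Mitochondrial redox genes were higher in 12 of 18 cases and lower in 1, beside 21.3% of all genes each way, with the same counts without female 1 and 2 lower without any one of C57BL/6J female 2 and male 2 and CAST/EiJ females 2 and 3. Nnt, the transhydrogenase that makes mitochondrial NADPH (chr13:119335448-119408997), ran from 21.2 to 25.4 CPM in C57BL/6J (median 24.04) and from 35.3 to 42.8 CPM in CAST/EiJ (median 39.5). The strains did not overlap (0.74 ± 0.05, adjusted p = 1.72e-13, 0.80 on HFHS). A deletion of coding exons of Nnt is known in C57BL/6J. Idh2, another source of mitochondrial NADPH (0.47 ± 0.07), and Gpx4, which reduces lipid peroxides (0.34 ± 0.07, 0.08 on HFHS), were higher, and the glutaredoxin gene Glrx2 was lower (-0.33 ± 0.05). Nuclear subunits of oxidative phosphorylation depended on single libraries. Of 50, 15 were higher and 1 lower with all libraries, 8 and 5 without CAST/EiJ female 1, 28 higher without CAST/EiJ female 2, 2 lower without CAST/EiJ male 1, and 8 higher in the 12-library fit. Cox6a1 ran from 75.8 to 94.5 CPM in C57BL/6J (median 84.02) and from 100.3 to 188 CPM in CAST/EiJ (median 109.7) (0.52 ± 0.09, adjusted p = 2.60e-05, 0.39 without female 1), and Ndufv1 was lower (-0.19 ± 0.05). Of 13 mitochondrially encoded genes 4 were higher and 3 lower. These counts include genes with near-identical nuclear copies, such as mt-Co2 described above, so their single-gene values are uncertain. Summed with its copy, mt-Atp6 differed by 0.14 in place of 0.53 (exact permutation p = 0.301). For mt-Nd3 the sum differed by -0.41 in place of -0.60, and for mt-Co3 by 0.21 in place of 0.22. The summed level of that list was 41201 to 55517 CPM in C57BL/6J and 44842 to 50903 CPM in CAST/EiJ, so the ranges overlapped.

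Cytosolic ribosomal protein genes were higher in 42 of 76 cases and lower in 8, beside 21.3% of all genes each way. The count higher was 23 in the 12-library fit. Without female 1 the counts were 29 and 11, and the median was 0.10 in place of 0.22. Their sum was 9869 to 10921 CPM in C57BL/6J, 18615 CPM in CAST/EiJ female 1 and 10677 to 13039 CPM in the other 5 libraries. The largest single differences, Rps12 (4.65, with Rps12-ps3 at -4.59), Rpl9, Rpl19 and Rpl27, are in the copy groups described above. Rpl17 (4.85) is in another, whose 3 genes summed to 229 CPM in C57BL/6J and 284 CPM in CAST/EiJ (log2 0.27, or 0.14 without female 1). The counts of the list include such genes, whose single-gene values are uncertain.

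Cholesterol synthesis genes were lower in 11 of 23 cases and higher in 1 (10 lower without female 1, 2 higher without C57BL/6J male 1 or CAST/EiJ female 3), beside 21.3% of all genes each way. Hsd17b7, an enzyme of the late pathway, ran from 16.1 to 22.2 CPM in C57BL/6J (median 18.3) and from 6.76 to 7.73 CPM in CAST/EiJ (median 7.51) (-1.33 ± 0.10, adjusted p = 3.96e-12), and Pmvk, phosphomevalonate kinase, ran from 27.3 to 34.95 CPM in C57BL/6J (median 33.1) and from 11.01 to 15.8 CPM in CAST/EiJ (median 13.8) (-1.25 ± 0.07, adjusted p = 1.22e-14). Both were free of overlap. Mvd, the higher gene, was at 0.27 ± 0.09 and not called without female 1. Of 32 genes of fatty acid metabolism and insulin signalling 10 were higher and 6 lower (5 higher in the 12-library fit). Scd2, the main stearoyl-CoA desaturase of brain, ran from 2784 to 3117 CPM in C57BL/6J (median 3019) and from 2205 to 2675 CPM in CAST/EiJ (median 2332) (-0.34 ± 0.04, adjusted p = 7.80e-08), and the fatty acid transporter gene Cd36 was lower (-0.55 ± 0.12). Acacb, which makes the malonyl-CoA that limits mitochondrial fat oxidation, was higher (0.49 ± 0.08), as were Igf1 (0.74 ± 0.24, a call lost without CAST/EiJ female 3 or male 2) and the binding protein gene Igfbp2 (0.87 ± 0.27).

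Myelin genes were one-sided, with 13 of 16 lower, beside 21.3% of all genes, and a median of -0.41, and edgeR, DESeq2 and limma each called 0 of them higher (also 0 at an unadjusted p under 0.05 by edgeR). Without CAST/EiJ female 1 the count was 15 and the median -0.60, and in the HFHS libraries the median was -0.90. Mobp, a structural protein of myelin, ran from 701 to 977 CPM in C57BL/6J (median 791) and from 214 to 713 CPM in CAST/EiJ (median 371). The highest CAST/EiJ value was that of female 1, and the other 5 lay below all of C57BL/6J (-1.04 ± 0.15, adjusted p = 1.49e-06, -1.23 without it). Mal ran from 178 to 227 CPM in C57BL/6J (median 200.05) and from 55.2 to 204 CPM in CAST/EiJ (median 103) (-0.89 ± 0.14, adjusted p = 5.88e-06), again with female 1 on top. Opalin (-0.87 ± 0.16) and Mbp (-0.30 ± 0.12) were lower, the call of Mbp being lost without any one of C57BL/6J females 2 and 3 and male 1 and CAST/EiJ females 2 and 3 and male 1, and Gjb1 was not called (-0.15 ± 0.15). The summed myelin list was 4596 to 6450 CPM in C57BL/6J, 6604 CPM in CAST/EiJ female 1 and 2333 to 3840 CPM in the other 5. The count was 8 without C57BL/6J male 1, without CAST/EiJ male 1 and in the 12-library fit. Precursor markers went the same way, with 7 of 10 lower (3 in the 12-library fit, against 16.2% of all genes), among them Sox10, a lineage factor (-0.61 ± 0.09), and Bcas1, a marker of newly formed oligodendrocytes (-0.69 ± 0.12).

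Markers of other cell types went both ways or differed in a few genes, beside 21.3% of all genes called each way. Of 15 astrocyte markers 7 were higher and 1 lower (6 and 3 without female 1, 2 lower without CAST/EiJ male 1), with S100b at 0.61 ± 0.10 and Aldh1l1 at -0.53 ± 0.05. Of 14 microglial markers 4 were higher and 4 lower, from Itgam, the integrin CD11b (-0.86 ± 0.07, adjusted p = 6.18e-11), to Olfml3 (0.59 ± 0.11). Of 14 endothelial markers 3 were lower, led by Ly6c1 (-0.89 ± 0.11), with 5 lower without CAST/EiJ female 2 and 7 without female 3 and 1 higher without C57BL/6J female 3 or CAST/EiJ female 1, and of 16 markers of pericytes, vascular muscle and fibroblasts 2 were higher and 3 lower (1 to 3 and 2 to 4 with 1 library left out). Rgs5, a pericyte gene, ran from 78.4 to 104 CPM in C57BL/6J (median 99.2) and from 16.4 to 52.5 CPM in CAST/EiJ (median 49.9), with female 1 the lowest (-1.11 ± 0.14, adjusted p = 1.92e-07). Ependymal markers were higher in 7 of 12 cases and lower in 2, with a median of 0.54. Without female 1 the counts were 4 and 2 and the median 0.18, and 4 were higher in the 12-library fit. Rsph1, a radial spoke protein of motile cilia, ran from 8.79 to 10.7 CPM in C57BL/6J (median 9.68) and from 53.5 to 139 CPM in CAST/EiJ (median 59.8) (2.899 ± 0.15, adjusted p = 6.33e-16, 2.62 without female 1), while the ciliary master factor Foxj1 differed by 0.88 ± 0.17 (0.54 without it) and Rarres2, the chemerin gene, by 1.204 ± 0.17. Of 12 choroid plexus markers 2 were higher and 4 lower (1 higher without C57BL/6J male 1 or CAST/EiJ female 2), among them Clic6 (-1.08 ± 0.08). Of 12 blood cell markers 1 was higher (0 to 3 with 1 library left out, 3 without C57BL/6J male 2) and 1 lower (3 without CAST/EiJ female 1). Of 12 tanycyte markers 1 was higher, a count that ran from 0 to 2 with 1 library left out, and 3 were lower without female 1.

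Pituitary hormone and receptor genes were higher in 7 of 11 cases and lower in 1, beside 21.3% of all genes each way. Their sum was 52.8 to 88.4 CPM in C57BL/6J, 2576 CPM in CAST/EiJ female 1 and 88.9 to 363.3 CPM in the other 5. Gh was at 0 in all 6 C57BL/6J libraries and 0.252 to 802 CPM in CAST/EiJ. That is at least 9611-fold higher at the mean against the floor of 3 counts over the group, or at least 1591-fold higher without female 1. The second bound rests largely on CAST/EiJ male 1, at 116 CPM of Gh, with the remaining libraries at 0.252 to 8.12 CPM. Cga, the common glycoprotein hormone subunit, ran from 0 to 6.19 CPM in C57BL/6J (median 3.87) and from 15.8 to 242 CPM in CAST/EiJ (median 28.8) (4.26 ± 0.60, adjusted p = 7.89e-07, 3.37 without female 1). Lhb (6.59 ± 0.78) and Fshb (6.58 ± 0.81), the gonadotropin beta subunits, did not overlap either. Tshb, the thyrotropin subunit, differed by -0.84, or by -1.73 without female 1, and its call was lost without any one of C57BL/6J female 3 and males 1 and 2 and CAST/EiJ females 2 and 3 and males 1 and 2. In the HFHS libraries the differences of Gh (2.85, adjusted p = 0.770) and Prl (-0.55, adjusted p = 0.900) were not called, whereas Lhb (3.16) and Fshb (4.099) were.

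Few of the listed neuronal markers were called, beside 21.3% of all genes each way. A missing call does not show that the levels were equal. Of 14 pan-neuronal markers 1 was higher and 1 lower (1 to 2 and 0 to 2 with 1 library left out), and their summed level was 6366 to 7046 CPM in C57BL/6J and 6445 to 6893 CPM in CAST/EiJ. Snap25, a synaptic fusion protein, was -0.12 ± 0.06 and not called (it was without C57BL/6J female 1 or CAST/EiJ female 3). Of 13 markers of GABAergic and glutamatergic neurons 1 was lower (2 without C57BL/6J female 2). Of 26 hypothalamic transcription factors 3 were higher and 2 lower (2 to 4 and 1 to 3 with 1 library left out). Markers of tissue beside the hypothalamus were seldom called, with 1 of 12 for striatum by edgeR. For thalamus 0 of 12 and for cortex and hippocampus 0 of 11 were called by edgeR, by DESeq2 and by limma. At an unadjusted p under 0.05 edgeR had 0 thalamus markers and 1 cortex or hippocampus marker. With 1 library left out, at most 1 thalamus, 2 cortex or hippocampus and 3 striatum markers were called. Axon guidance and adhesion genes were lower in 11 of 38 cases and higher in 3 (17 lower without CAST/EiJ female 2, 1 higher in the 12-library fit). Slit1, a repellent ligand, ran from 204 to 233 CPM in C57BL/6J (median 212) and from 83.8 to 194 CPM in CAST/EiJ (median 183) (-0.44 ± 0.10, adjusted p = 8.39e-04, -0.30 without female 1), Sema3a was lower (-0.62 ± 0.14), and the cadherin gene Cdh13 was higher (0.44 ± 0.05, adjusted p = 1.25e-08).

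**Figure D4:**
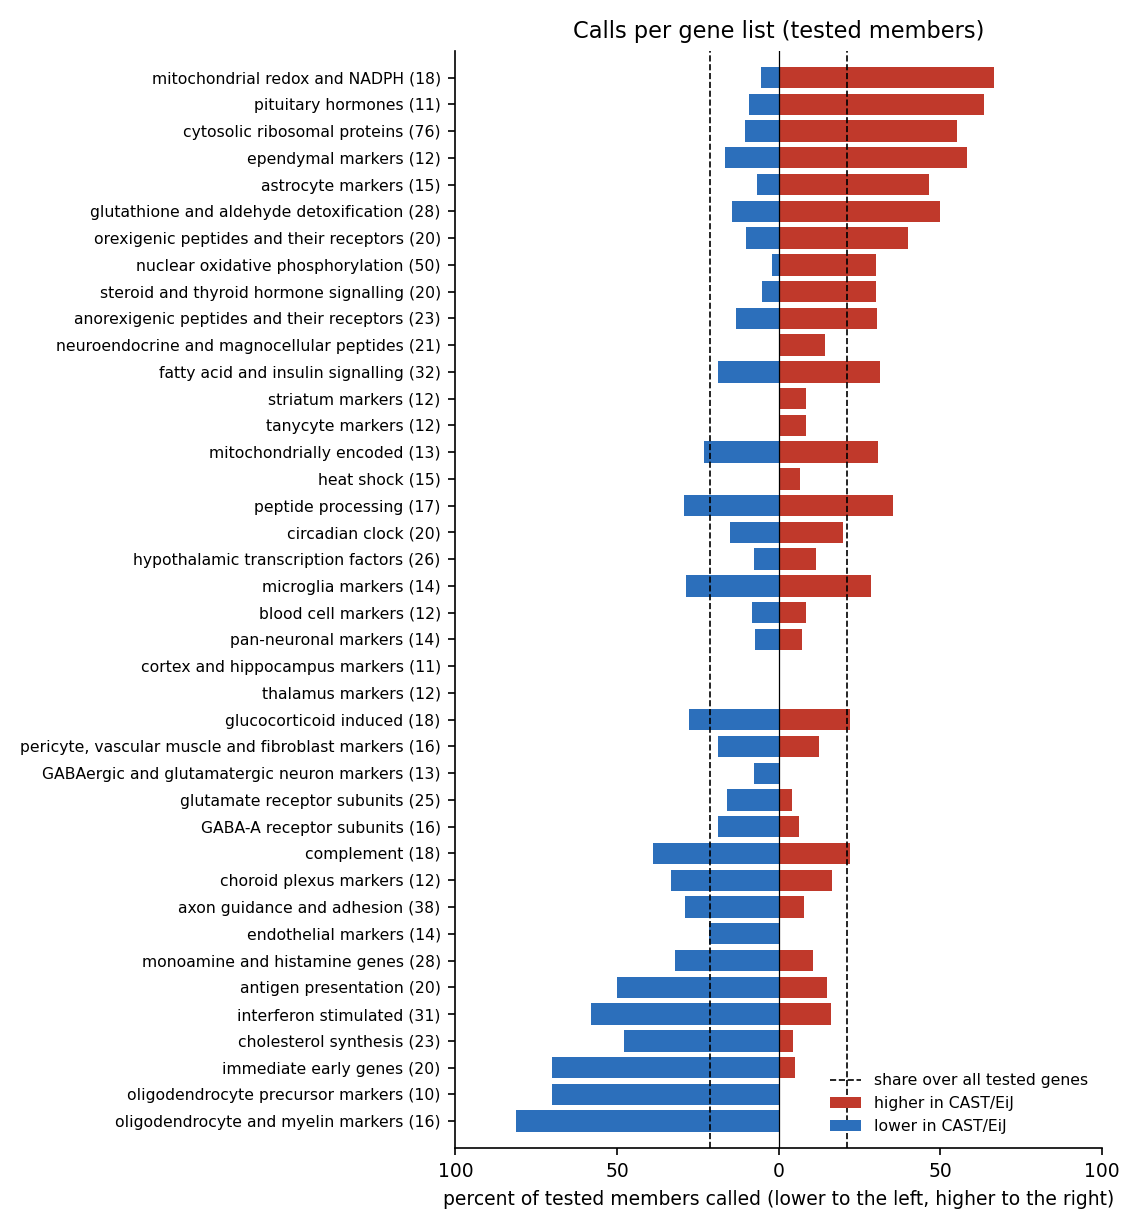
Percent of tested members of each of 40 gene lists (number tested in parentheses) called higher (red, to the right) or lower (blue, to the left) in CAST/EiJ on the control diet, with dashed lines at the share over all genes, 21.3% each way. Lists are ordered by the share higher less the share lower, and myelin, precursor and immediate early genes reach furthest to the left.

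Whether the strain difference depended on sex was tested with an interaction term. In the females alone 7075 genes were called between strains (35.3%) and in the males alone 5390 (26.9%). By edgeR 0 genes (0.0%) had a strain difference that itself differed between the sexes, with 3213 at an unadjusted p under 0.05. DESeq2 called 190 and limma on the deposited log2 values 1. Leaving out CAST/EiJ female 2 turned the edgeR count to 2646, and the CAST/EiJ females then left were 1 and 3, the libraries with the steepest slopes on transcript length. Between females and males, 14 genes (0.0698%) were called within C57BL/6J and 912 (4.55%) within CAST/EiJ. The CAST/EiJ females include female 1, rich in pituitary transcripts, and female 3. The counts within each strain and within each sex were not recomputed with a library left out, so the part of these libraries in them was not tested.

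The HFHS libraries of both strains share no library with the control comparison. There 8518 genes were called (42.5%), 4036 higher (20.1%) and 4482 lower (22.4%). Of the 8549 control calls, 8251 had the same direction on HFHS, 6235 (72.9%) were called in that direction and 6 in the opposite one. Of the 2476 calls of at least 2-fold, 2441 had the same direction and 2117 (85.5%) were called. Across all genes the log2 differences on both diets had a Pearson correlation of 0.90, a description over genes, which are not independent. The test of the difference between diets called 0 genes (0.0%) by edgeR, with 2041 at an unadjusted p under 0.05, while DESeq2 called 24 and limma on the deposited log2 values 0. Without CAST/EiJ female 2 the edgeR count was 633. Values of genes such as Crh (control -1.04, HFHS 0.22) and Egr2 (control -1.4004, HFHS 0.15) are thus not shown to differ between diets.

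**Figure D5:**
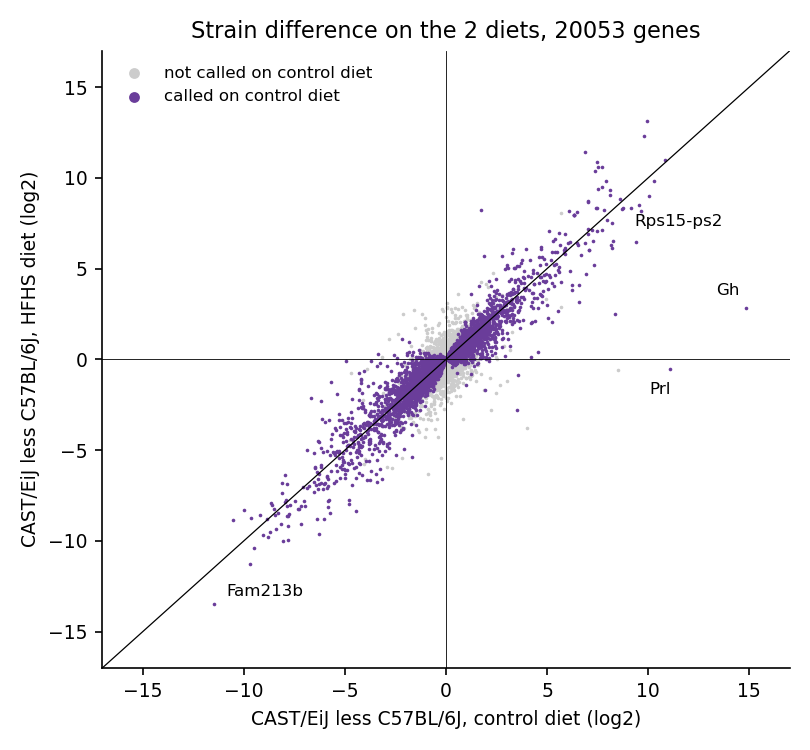
Strain difference on the control diet (horizontal axis, log2) against that on the HFHS diet (vertical axis, log2) for each gene tested, purple where called on the control diet, with the diagonal marking equality. Points follow the diagonal from Fam213b to Rps15-ps2, and Gh and Prl lie far to the right of it.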

How the data were processed

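Poly(A) RNA of mouse hypothalamus was sequenced as 100 base paired reads, per the labels' protocols, which name a KAPA mRNA HyperPrep kit and added ERCC spike-ins. The authors deposited a table of expected counts per gene, estimated counts without normalization, of which 21.4% of the values were not whole, and these were rounded. A second deposited table holds log2-scale variance-stabilised values. DESeq2 and build GRCm38 are named in the submitters' processing notes. The sources used here do not name the aligner, the counter, the annotation or the strand setting, nor do they say whether CAST/EiJ reads were aligned to a CAST/EiJ genome. How reads of near-identical genes were assigned before the table was deposited was not tested.

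From the counts, 20053 of 24265 genes (82.6%) passed edgeR's expression filter over 12 groups of strain, diet and sex. Counts were scaled with TMM and fitted in edgeR 4.0.16 (R 4.3.3) with 1 mean per group and 24 residual degrees of freedom. The strain difference weighted the sexes equally, and quasi-likelihood p-values were Benjamini-Hochberg adjusted over all genes tested and called under 0.05. SE is the absolute log2 difference over the square root of F. DESeq2 1.42.0, limma 3.58.1 on the deposited log2 values, other scalings, filters and fits, and leaving out each library in turn were the alternatives. Near-identical copies were found by aligning GENCODE M21 transcripts to each other. The common biological coefficient of variation was 12.1%. Tested on simulated data with 20053 genes for this comparison, the fit recovered 84% of 50 genes changed 1.5-fold, 94% at 2-fold and 100% at 4-fold and at 8-fold. It made 10 false calls (5.03% of calls). The changed genes were drawn among those with a mean of at least 1 CPM, and all other genes had 1 mean in every group. No simulated library was made to stand apart, so these rates need not hold for the real libraries.

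The comparison, the gene lists and the tests were chosen with earlier results of these data known. Genes named were, among those called with an assigned symbol and at least 1 CPM, the 10 with the smallest p and the 10 with the largest difference each way, up to 8 called and 4 uncalled members of each list, the 3 longest runs, pituitary and check genes, and copies of named genes. Not every gene of that rule is printed, and list members named beyond it (mainly among the immediate early, interferon and receptor genes) were chosen after their values were seen. Some genes counted in the totals are not reported here by name.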

Additional observations from a re-analysis of the deposited data

Results flagged for a closer look

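Of 358 sets of 6 libraries (1 gene in 1 strain on the control diet), 54 held a highest or lowest library set apart from the other 5 by more than Dixon's 95% limit. For independent normal values the limit is passed in about 1 in 20 sets. These sets are CPM values of the same 12 libraries and are not independent, so 54 of 358 is only a description. Pituitary genes were included as checks with earlier results known, so their flags add no separate support. CAST/EiJ female 1 was the library set apart 37 times, 35 as the highest and 2 as the lowest.

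Its pituitary genes stood out, with Prl at 1331 CPM, Gh at 802, Cga at 242, Lhb at 29.5, Gnrhr at 10.5 and Tshb at 5.79 CPM. Among peptide genes of the hypothalamus it held the highest CPM of Npy (80.1), Nms (8.29), Scg2 (1844), Prok2 (11.6), Oxt (229) and Nucb2 (35.3), and the lowest of Npy5r (5.48). Its myelin and oligodendrocyte genes were far above the other CAST/EiJ libraries, with Mobp at 713, Mal at 204, Opalin at 17.3, Mbp at 2568 and Bcas1 at 185 CPM. Ependymal and astrocyte genes were high too, with Rsph1 at 139, Foxj1 at 73.7, Rarres2 at 67.3 and S100b at 256 CPM, while the pericyte gene Rgs5 was lowest at 16.4 CPM.

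Ribosomal and metabolic genes in the same library were the highest of their strain for Rpl9 (415 CPM), Rpl19 (417), Rpl17 (433), Rpl27 (134), Rps12 (176), Cox6a1 (188), Glo1 (271), Gsta4 (22.3) and Gsr (42.7). It was also highest for C3 (143 CPM), Retsat (162), Pdxdc1 (61.5), Srp54b (82.8) and Ctcf (74.0).

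C57BL/6J male 3 was set apart 7 times. It was highest, though low beside CAST/EiJ, for Tspan10 (0.125 CPM), Rps12 (12.4) and Gm13341 (50.7), and highest for Glo1 (108). It was lowest for Dpp4 (1.78), Egr2 (0.251) and B2m (45.6). C57BL/6J female 3 was highest for Nr4a1 (101 CPM), Firre (129), Tapbp (45.6) and Acacb (17.2). C57BL/6J female 1 was highest for Oxt (146) and Prl (0.145), and C57BL/6J male 1 for Psmb10 (15.7). C57BL/6J male 2 was lowest for Ide, at 54.9 CPM. In CAST/EiJ, female 3 was highest for mt-Co2 (27.5 CPM) and female 2 lowest for Rpl29 (6.26).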

How the results depend on the processing

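The count of called genes kept within 1.5 times of 8549 under every alternative run but 1. It was 6228 with only the 12 control libraries in the fit, 6909 with a filter of 1 CPM in 18 libraries, and 7926 to 9242 when 1 library was left out, and 2121 genes passed a test against a 1.5-fold difference. Calls of at least 2-fold numbered 953 under the strict filter and 161 with limma on the compressed deposited log2 values, 3758 at 1.5-fold and 1063 at 4-fold, and 2383 to 2560 when 1 library was left out. Genes whose strain difference depended on sex numbered 190 by DESeq2, 1 by limma and 0 to 2646 with 1 library left out (1 without C57BL/6J control male 1, 2646 without CAST/EiJ control female 2). For dependence on diet the counts were 24 by DESeq2 and 0 to 633 with 1 library left out (633 without CAST/EiJ control female 2, 2 without C57BL/6J control female 3, 1 without C57BL/6J HFHS female 2 and 1 without CAST/EiJ control male 3). The cause was not tested.

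Of 166 named genes called, 17 lost the call under at least 1 alternative (Cartpt, Dusp1, Egr2, Fos, Galr1, Gm28661, Grin2b, Igf1, Klf4, Mbp, Mc3r, Mvd, Nms, Prok2, Slc18a2, Sult1a1 and Tshb), and 5 that were not called gained one (B2m, Ier2, Lepr, Sgk1 and Snap25). With 1 library left out, 4 genes that were not called changed sign, with log2 differences from -0.0178 to 0.3993 for Pomc and from -0.3054 to 0.4087 for Oxt (each lowest without CAST/EiJ female 1), from -0.0573 to 0.0456 for Fam65a and from -0.0555 to 0.0187 for Ctcf. List medians moved by more than 1 SD in 16 of 840 pairs of list and alternative. On the compressed deposited log2 values (limma) the medians were nearer 0, at -0.38 for immediate early, -0.16 for interferon-stimulated, -0.16 for antigen presentation and 0.22 for ependymal genes. No paired analysis was possible because the replicate numbers only name libraries within a group and the labels pair none across strains. At this depth 3 counts over a group of 6 libraries correspond to 0.0161 CPM in C57BL/6J, which limits statements on genes such as Gh; libraries of either strain that hold a few percent of the other strain's private transcripts limit them further.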

Other observations

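Ide was also split within C57BL/6J on the HFHS diet, where 4 libraries held 53.3, 55.6, 59.4 and 59.9 CPM and the other 2 held 109 and 117 CPM. All NZO/HlLtJ libraries lay between 49.6 and 60.8 CPM. The neighbouring gene Btaf1 was lowest, at 42.0 CPM, in the control library with low Ide, C57BL/6J male 2, against 51.4 to 66.5 CPM in the other 5. Fgfbp3 was also lowest there, at 3.85 CPM. Cpeb3 was not, at 116.9 CPM within a range of 104.2 to 122.2 CPM in C57BL/6J control libraries. On HFHS, Fgfbp3 was at 4.87 CPM in C57BL/6J female 3, with low Ide, and at 4.19 CPM in male 2, with high Ide.

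Of all genes tested, 42.6% were called and 12.3% were called at 2-fold or more. Of 36 tested cytochrome P450 genes 15 were higher and 11 lower in CAST/EiJ (72.2% called, 38.9% at 2-fold or more), and of 24 serpins 10 were higher and 7 lower (70.8% and 41.7%). Of 30 H2 genes 6 were higher and 12 lower (60.0% and 36.7%). Of 364 zinc finger genes named Zfp, 87 were higher and 72 lower (43.7% and 3.8%).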
